A study of Mus musculus with 2 samples.

Results

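Thin filaments of heart muscle are built from actin, tropomyosin and troponin, and their slow-growing (pointed) ends carry tropomodulins and leiomodins. The transcripts of 8 genes of this set were examined in the hearts of newborn mice: the tropomyosins Tpm1, Tpm2, Tpm3 and Tpm4, the tropomodulins Tmod1 and Tmod3, and the leiomodins Lmod2 and Lmod3. They were found by gene symbol among 55536 mouse genes. All 8 were expressed, which here means that TPM reached 1 or more in each heart. TPM is a transcript level scaled for transcript length and library size, so that genes can be set side by side within a library. The hearts came from male B6CASTF1/J mice of 4 days, first-generation offspring of C57BL/6J and CAST/EiJ, with no genetic modification or treatment in the labels. The study holds 2 libraries of 1 group, replicate 2 and replicate 1, from animals with different numbers but the same donor record. No contrast between conditions exists and no test was possible. Values are given per heart and as mean ± SD with n = 2, and if both libraries came from 1 animal the SD is technical error alone.

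Each library was quantified by its authors in 2 ways, called here the first quantification (expected counts and TPM of genes and transcripts) and the second (estimated counts and TPM of transcripts). Values are of the first unless the second is named. Rounded expected counts on mouse genes came to 35743975 in replicate 2 and 31512574 in replicate 1. All 7 cardiomyocyte markers examined were expressed in both hearts, with a summed level of 29780 TPM in replicate 2 and 32301 TPM in replicate 1. Of 9 skeletal muscle markers, 1 was expressed, Tnni2 at 2.80 ± 0.0424 TPM, and Myod1 and Pax7, which define the muscle precursor lineage, were listed at 0 in both hearts. The summed level of 7 red cell markers was 5293 TPM in replicate 2 and 1409 TPM in replicate 1. In bulk tissue, fewer cells of a type and less RNA per cell cannot be told apart.

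Tropomyosin is a coiled coil that lies along the actin filament and, in striated muscle, moves with troponin to open or close the sites where myosin binds. Each tropomyosin gene yields several proteins through alternative starts, paired alternative exons and alternative ends. Sarcomeric thin filaments carry long forms, read from the upstream start, but some long forms are known from smooth muscle and other cells. Short forms read from an internal start are found on the actin of the cytoskeleton in many cell types. Tropomodulins cap the pointed end, which limits filament length, and leiomodins, related proteins with an extra actin-binding region, let filaments grow there.

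Tpm1 was by far the most abundant member. It encodes alpha-tropomyosin, the main tropomyosin of the adult mouse heart, and lies on chromosome 9 (mm10, 67022590 to 67049406, minus strand). Its level was 3402 TPM in replicate 2 and 3508 TPM in replicate 1, from 108871 and 94611 expected counts. Tpm1 ranked 5 among 22015 nuclear protein-coding genes by mean TPM, and 8 by the second quantification. Tpm4, a tropomyosin of the cytoskeleton, had 112.8 TPM in replicate 2 and 114.9 TPM in replicate 1. Tpm3, which serves both slow skeletal muscle and the cytoskeleton, had 53.4 TPM in replicate 2 and 65.8 TPM in replicate 1. Tpm2 encodes beta-tropomyosin, known from the embryonic heart, skeletal muscle and smooth muscle, and had 43.5 TPM in replicate 2 and 74.1 TPM in replicate 1. The order of Tpm2 and Tpm3 thus differed between the hearts. Tpm1 and Tpm4 stood above them in both hearts. In mm10, Tpm2 lies at chr4:43514711-43523765 (minus strand), Tpm3 at chr3:90072649-90100902 (plus strand) and Tpm4 at chr8:72134975-72153142 (plus strand).

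Summed over the 4 genes, tropomyosin reached 3688 ± 107 TPM. Tpm1 made up 94.2% of that sum in replicate 2 and 93.2% in replicate 1. The rest was split into 3.09 ± 0.0490% for Tpm4, 1.61 ± 0.192% for Tpm3 and 1.59 ± 0.540% for Tpm2. Within a heart, Tpm1 exceeded Tpm2 by 6.29 on the log2 scale in replicate 2 and 5.56 in replicate 1 (log2 of TPM plus 0.1), a mean ratio of 60.7-fold. By the same measure Tpm3 stood below Tpm4, with a log2 ratio of -1.08 in replicate 2 and -0.80 in replicate 1.

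**Figure D1:**
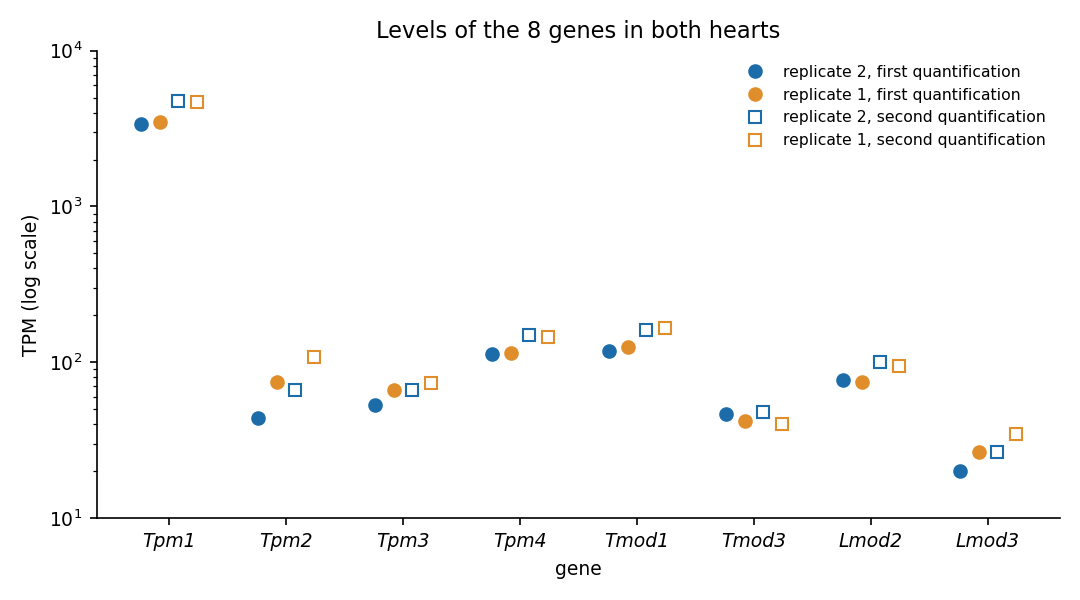
TPM on a log axis of the 8 genes in each heart (blue, replicate 2, and orange, replicate 1) by the first quantification (filled circles) and the second (open squares). Tpm1 lies at 3402 TPM or more at all 4 points, the other 7 genes lie at 164.9 TPM or less, and the points of Tpm2 are spread the most between the hearts.

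At the pointed end, Tmod1 was the leading gene. It encodes the tropomodulin of striated muscle and red cells and had 118.6 TPM in replicate 2 and 124.4 TPM in replicate 1. Tmod3, the widely expressed tropomodulin, had 46.4 TPM in replicate 2 and 41.8 TPM in replicate 1. Tmod1 was above Tmod3 in both hearts, by a mean log2 ratio of 1.46 ± 0.155, or 2.75-fold. Tmod2, described in neurons, had 1.92 TPM in replicate 2 and 2.45 TPM in replicate 1, and Tmod4, described in skeletal muscle, had 1.34 TPM in replicate 2 and 1.38 TPM in replicate 1. Tmod1 held 71.8 ± 1.89% of the summed TPM of the 4 tropomodulin genes. Tmod1 lies at chr4:46038935-46116032 (plus strand) and Tmod3 at chr9:75497707-75559657 (minus strand).

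Lmod2 is the leiomodin of the heart, and its loss in mice is known to shorten cardiac thin filaments. Its level was 76.7 TPM in replicate 2 and 74.5 TPM in replicate 1. Lmod3, best known from skeletal muscle and nemaline myopathy, had 20.1 TPM in replicate 2 and 26.6 TPM in replicate 1. Lmod2 exceeded Lmod3 by a mean log2 ratio of 1.70 ± 0.318, or 3.26-fold. Both lie on chromosome 6, Lmod2 at chr6:24597762-24605414 (plus strand) and Lmod3 at chr6:97238534-97252759 (minus strand). Lmod1, the smooth muscle leiomodin, had 0.69 TPM in replicate 2 and 0.48 TPM in replicate 1, from 76 and 45 expected counts. The levels of Tmod1 and Tmod3 summed to 165.0 TPM in replicate 2 and 166.2 TPM in replicate 1, and those of Lmod2 and Lmod3 to 96.8 TPM in replicate 2 and 101.1 TPM in replicate 1. The ratio of these tropomodulin to leiomodin levels was 1.71 in replicate 2 and 1.64 in replicate 1, a closer match between the hearts than either partner ratio above. Tropomyosin transcripts exceeded those of the 4 pointed-end genes together by 13.9 ± 0.195-fold.

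By mean TPM the 8 genes ran in the order Tpm1, Tmod1, Tpm4, Lmod2, Tpm3, Tpm2, Tmod3 and Lmod3. The values of Tpm3 and Tpm2 overlapped between the hearts, as did those of Tpm2 and Tmod3, and every other neighbour in that order stood apart in both hearts. By the second quantification Tpm2 had the higher mean of the pair Tpm2 and Tpm3, at 87.1 and 69.4 TPM, and their values again overlapped.

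The remaining thin filament genes give the scale of these levels. Of 25 listed genes, 23 were expressed. Cardiac actin Actc1 had 7443 ± 680 TPM. The cardiac troponins Tnnt2, Tnnc1 and Tnni3, which bind tropomyosin, calcium and actin, had 3352 ± 448, 2634 ± 299 and 2308 ± 196 TPM. The ratio of Tnnt2 to Tpm1 was 0.892 in replicate 2 and 1.05 in replicate 1, so neither gene led in both hearts, while by the second quantification Tnnt2 led in both, at 1.09 and 1.17. Summed Actc1 and Acta1 exceeded summed tropomyosin by 2.24-fold in replicate 2 and 1.99-fold in replicate 1. Tnni1, the slow skeletal troponin I that the fetal heart also uses, had 873.0 ± 124 TPM. Capzb, a subunit of the cap at the opposite (barbed) end, had 180.5 ± 0.495 TPM, above every pointed-end gene of the 8. Nebl, the nebulin relative of heart muscle, had 232.7 ± 24.8 TPM, against 1.48 ± 0.311 TPM for Neb, the nebulin of skeletal muscle.

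Which tropomyosin proteins these levels stand for depends on the exons joined. The annotation lists 21 Tpm1 transcripts. Exon 2 of Tpm1 has an upstream copy (2a, chr9:67048124-67048249) and a downstream copy (2b, chr9:67047786-67047911), of which 2b is known from striated muscle and 2a from smooth muscle. Exon 6 likewise has copies 6a (chr9:67032466-67032541) and 6b (chr9:67031951-67032026). The last coding exon can be 9a, the striated muscle end (chr9:67029664-67029742), or 9d, an end known from smooth muscle and other cells (chr9:67023362-67023441). All lie on the minus strand, and mm10 coordinates of the coding part are given. The copies are printed because the share of each one is the result that follows. Sequences are from the GENCODE M21 transcripts, 5′ to 3′, compared base by base from the first base with no gaps, and capitals mark bases that differ between the paired copies.
Tpm1 exon 2a: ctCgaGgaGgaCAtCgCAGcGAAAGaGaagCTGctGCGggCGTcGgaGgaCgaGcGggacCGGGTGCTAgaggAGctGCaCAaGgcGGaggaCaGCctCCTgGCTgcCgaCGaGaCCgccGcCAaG
Tpm1 exon 2b: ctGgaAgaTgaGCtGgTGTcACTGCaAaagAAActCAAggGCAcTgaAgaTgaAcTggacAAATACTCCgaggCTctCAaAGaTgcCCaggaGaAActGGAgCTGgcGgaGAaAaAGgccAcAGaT
Tpm1 exon 6a: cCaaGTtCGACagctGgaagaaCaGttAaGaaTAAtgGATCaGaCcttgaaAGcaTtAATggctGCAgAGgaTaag
Tpm1 exon 6b: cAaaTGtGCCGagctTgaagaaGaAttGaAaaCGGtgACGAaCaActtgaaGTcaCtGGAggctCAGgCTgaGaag
Tpm1 exon 9a: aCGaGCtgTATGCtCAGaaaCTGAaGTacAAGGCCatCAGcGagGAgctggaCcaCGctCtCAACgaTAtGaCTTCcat
Tpm1 exon 9d: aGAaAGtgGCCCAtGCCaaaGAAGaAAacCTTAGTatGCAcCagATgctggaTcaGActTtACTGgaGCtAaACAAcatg

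Exons 2a and 2b had the same base at 60 of 126 positions, 6a and 6b at 43 of 76, and 9a and 9d at 34 of 79. Shares of each exon were taken over transcripts with a complete reading frame. The upstream start was in 99.3% of Tpm1 TPM in replicate 2 and 99.2% in replicate 1. Exon 2b was in 98.8% in replicate 2 and 98.7% in replicate 1. Exon 6b was in 99.8% in replicate 2 and 99.7% in replicate 1, and the 9a end in 97.9% in both hearts. The first quantification therefore placed nearly all Tpm1 reads on the long striated form. Transcripts with the 9d end carried 38.0 TPM in replicate 2 and 38.6 TPM in replicate 1, and short forms from the internal start 22.9 TPM in replicate 2 and 27.0 TPM in replicate 1.

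By the second quantification the upstream start and exon 2b again held over 99% of Tpm1, and the shares of exon 6 and the end were different. The rare internal start had 4.66 TPM in replicate 2 and 14.4 TPM in replicate 1, and exon 2a had 7.22 TPM in replicate 2 and 7.43 TPM in replicate 1, below its 16.2 TPM in replicate 2 and 17.5 TPM in replicate 1 by the first. Exon 6b had 92.3% in replicate 2 and 91.0% in replicate 1, and exon 9a 81.1% in replicate 2 and 80.7% in replicate 1. The shares moved mainly with 2 transcripts that encode 284 residues, as does the leading one. Tpm1-216, which joins 6b to the 9d end, had 20.2 TPM in replicate 2 and 18.7 TPM in replicate 1 by the first quantification, and 775 TPM in replicate 2 and 769 TPM in replicate 1 by the second. Tpm1-203, which carries 6a and ends at 9a, had 0.17 TPM in replicate 2 and was listed at 0 in replicate 1 by the first, against 361 TPM in replicate 2 and 415 TPM in replicate 1 by the second. Tpm1-205, the leading transcript, had 3228 TPM in replicate 2 and 3326 TPM in replicate 1 by the first, and 3399 TPM in replicate 2 and 3286 TPM in replicate 1 by the second. Those TPM values are not on one scale, since most genes were higher in the second. The counts given to Tpm1-205 were 103130 in replicate 2 and 89588 in replicate 1 by the first, and 73110 in replicate 2 and 62733 in replicate 1 by the second. The coding sequences of Tpm1-205 and Tpm1-203 have the same base at 96.1% of 852 positions, and those of Tpm1-205 and Tpm1-216 at 94.6%. Tpm1-207, of 287 residues and with another end, had 14.9 TPM in replicate 2 and 16.3 TPM in replicate 1 by the first, and 91.5 TPM in replicate 2 and 97.3 TPM in replicate 1 by the second, and was chosen after its values were seen. Both hearts gave the same pattern within each quantification, and for 6b and 9a the gap between the quantifications was larger than that between the hearts.

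**Figure D2:**
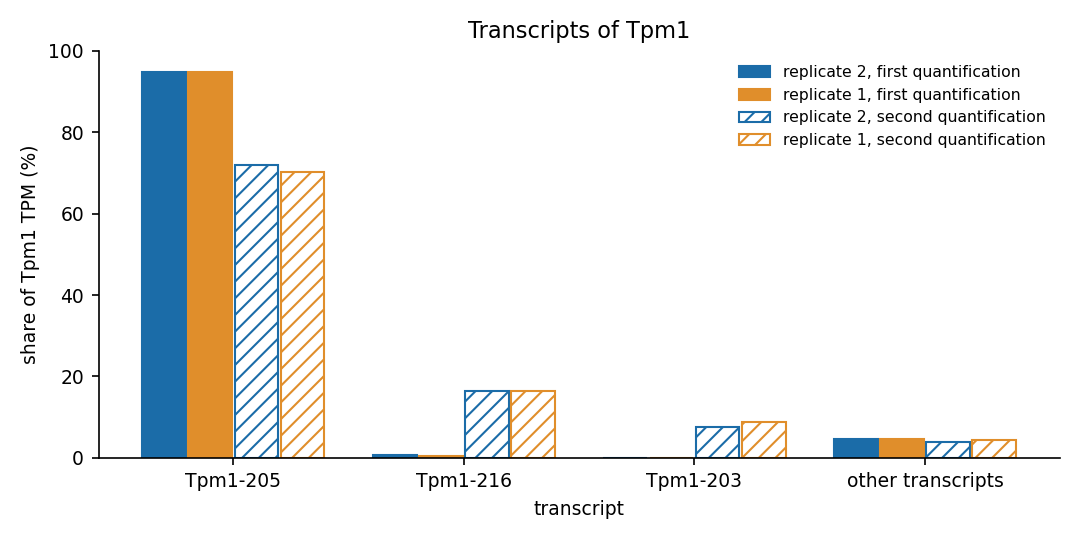
Share of the Tpm1 TPM in percent held by 3 transcripts and by all others, per heart (blue, replicate 2, and orange, replicate 1), by the first quantification (solid bars) and the second (hatched bars). Tpm1-205 holds 94.8 ± 0.0475% by the first and 71.1 ± 1.19% by the second, and Tpm1-216 holds 0.563 ± 0.0433% by the first and 16.4 ± 0.0226% by the second.

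Across all features the quantifications also differed. Of 15573 genes whose mean TPM reached 1 by either quantification, 12.6% differed by at least 2-fold the same way in both hearts. None of the 8 members did as a gene. The median gene was higher by 1.36-fold in the second, and the members' ratios of second to first mean TPM lay between 0.999 for Tmod3 and 1.48 for Tpm2. Among transcripts, 35.1% of 45077 differed by at least 2-fold, and 14 of 38 member transcripts did, a share close to that background. Of these 14, 8 were higher in the first quantification and 6 in the second.

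Tpm2 had 2 coding transcripts with similar levels. Tpm2-202 joins exon 6b (chr4:43518644-43518719) to 9a (chr4:43515924-43516003), the skeletal muscle combination. Tpm2-203 joins exon 6a (chr4:43519003-43519078) to 9d (chr4:43514782-43514861), the combination known from smooth muscle and fibroblasts. The exons lie on the minus strand of mm10 and are printed in the same way, since their balance is the result.
Tpm2 exon 6a: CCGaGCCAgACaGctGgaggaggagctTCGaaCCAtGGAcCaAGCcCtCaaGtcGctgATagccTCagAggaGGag
Tpm2 exon 6b: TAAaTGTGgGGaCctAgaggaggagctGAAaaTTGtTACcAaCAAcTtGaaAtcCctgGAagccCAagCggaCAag
Tpm2 exon 9a: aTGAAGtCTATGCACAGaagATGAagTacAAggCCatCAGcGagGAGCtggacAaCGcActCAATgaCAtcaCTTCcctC
Tpm2 exon 9d: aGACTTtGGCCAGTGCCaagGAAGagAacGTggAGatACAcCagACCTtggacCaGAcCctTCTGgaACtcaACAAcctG

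The paired copies shared 41 of 76 bases at exon 6 and 33 of 80 at the end. Tpm2-202 had 20.0 TPM in replicate 2 and 40.6 TPM in replicate 1. Tpm2-203 had 21.3 TPM in replicate 2 and 31.3 TPM in replicate 1. Exons 6b and 9a together were in 48.5% of the complete coding TPM in replicate 2 and 56.5% in replicate 1. By the second quantification they were in 41.6% in replicate 2 and 46.5% in replicate 1. The muscle combination had the lower share in replicate 2 by both quantifications, but which combination led in replicate 1 depended on the quantification. Another annotated frame, Tpm2-201, which joins 6a to 9a, was listed at 0 in both hearts. Tpm1 and Tpm2 thus differed in exon use: the 9a end was in 97.9 ± 0.0103% of Tpm1 and 52.5 ± 5.66% of Tpm2 by the first quantification, and in 80.9 ± 0.283% of Tpm1 and 44.1 ± 3.49% of Tpm2 by the second.

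Among complete coding transcripts, those of Tpm3 were mostly short forms. Tpm4 has only 1 annotated complete coding transcript, a short form, so its share was set by the annotation and not measured. Tpm3 has an upstream start for proteins of 284 and 285 residues and an internal start for proteins of 247 and 248 residues. The internal start was in 96.5% of its complete coding TPM in replicate 2 and 95.2% in replicate 1. The second quantification gave 90.5% in replicate 2 and 89.0% in replicate 1. Of all Tpm3 TPM, transcripts without a complete long or short frame included, short forms made up 74.4% in replicate 2 and 60.5% in replicate 1. Tpm3-201, a short form with 6a and the 9d-type end, led with 33.9 TPM in replicate 2 and 34.8 TPM in replicate 1. Tpm3-202, a short form with 6b and the 9a-type end, had 5.77 TPM in replicate 2 and 5.01 TPM in replicate 1. Tpm3-205, the long form of slow skeletal muscle, had 1.43 TPM in replicate 2 and 2.03 TPM in replicate 1, from 42.9 and 51.2 expected counts. By the second quantification it had 4.85 TPM in replicate 2 and 6.69 TPM in replicate 1, and it was among the transcripts at least 2-fold apart between the quantifications. Tpm4-201, of 248 residues, held 112.8 TPM in replicate 2 and 114.1 TPM in replicate 1, which was all of Tpm4 in replicate 2 and all but 0.88 TPM in replicate 1.

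The 2 starts of Tpm3 have separate promoters, shown here because their use differed so widely. The 120 bases before each start are printed from RefSeq (GRCm38.p6, plus strand), at chr3:90072531-90072650 for the upstream start and chr3:90079401-90079520 for the internal one, with no base in capitals.
Tpm3 upstream promoter: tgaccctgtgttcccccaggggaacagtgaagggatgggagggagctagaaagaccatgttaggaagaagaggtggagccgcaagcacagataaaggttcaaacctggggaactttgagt
Tpm3 internal promoter: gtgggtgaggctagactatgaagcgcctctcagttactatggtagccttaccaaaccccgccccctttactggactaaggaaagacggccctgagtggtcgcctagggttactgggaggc

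Over the 250 bases before each start, the upstream promoter held 2 CpG dinucleotides at 48.8% G and C, and the internal promoter held 11 at 53.6%. The letters CAGCTG, an E-box core that reads the same on both strands, were found in the upstream window only, and 13.0% of 32851 RefSeq promoter windows of this length held them. TATAAA, searched on both strands, was in neither window and was in 12.4% of all windows. A match is a description of letters, not of a bound site.

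**Figure D3:**
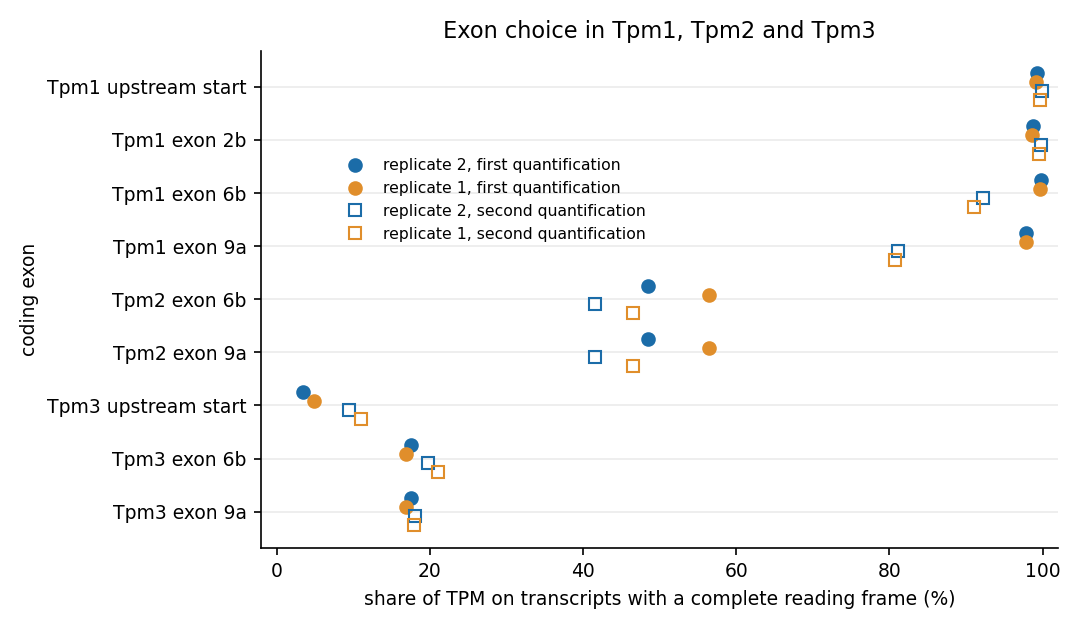
Share in percent of the TPM on transcripts with a complete reading frame that carry the named start or exon, for Tpm1, Tpm2 and Tpm3, per heart (blue, replicate 2, and orange, replicate 1) by the first quantification (filled circles) and the second (open squares). Tpm1 lies at 80.7% or more throughout, Tpm2 between 41.6% and 56.5%, and Tpm3 at 21.1% or less.

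Over all 4 tropomyosin genes, transcripts for long proteins made up 92.3 ± 0.137% of tropomyosin TPM, and those for short proteins 4.83 ± 0.0357%. By the second quantification the shares were 94.3 ± 0.177% and 4.22 ± 0.0976%. Most of the long forms were Tpm1 and most of the short forms were Tpm4, at 113.4 of 178.2 mean TPM. The annotation lists no long form of Tpm4 and no short form of Tpm2, so neither could be counted. The remaining 2.88 ± 0.172% lay on transcripts with a retained intron, with no reading frame or an incomplete one, or with a frame of at most 157 residues.

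As a share of its own gene, that remainder was largest for Tpm3, while in TPM most of it was Tpm1, at 85.5 of 106.3 mean TPM. The 8 Tpm3 transcripts annotated with a retained intron summed to 11.5 TPM in replicate 2 and 23.1 TPM in replicate 1, or 21.5% of the gene in replicate 2 and 35.1% in replicate 1. The second quantification gave 9.22% in replicate 2 and 16.9% in replicate 1. Tpm3-209, a fragment of 357 bases, had the widest gap, with 2.84 TPM in replicate 2 and 9.24 TPM in replicate 1 from 21.1 and 57.9 expected counts, and by the second quantification it was listed at 0 in replicate 2 and had 1.70 TPM in replicate 1. Tpm3-207, Tpm3-211 and Tpm3-212 were also lower in replicate 2 by both quantifications. The 2 main coding transcripts, Tpm3-201 and Tpm3-202, differed between the hearts by log2 TPM ratios of -0.04 and 0.20. The gap in Tpm3 TPM thus lay mostly in the transcripts annotated with a retained intron, most of them short and with few counts. The 8 together had 264 expected counts in replicate 2 and 399 in replicate 1. Expected counts of the whole gene showed no such gap. They were 2746 in replicate 2 and 2514 in replicate 1, a log2 ratio of 0.01 after scaling between the libraries. Expected counts of Tpm3 were not whole numbers, nor were those of Tpm4, and the cause was not tested. Tpm3-rs7, a gene related to Tpm3 by name, was given 715 expected counts in replicate 2 and 681 in replicate 1.

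**Figure D4:**
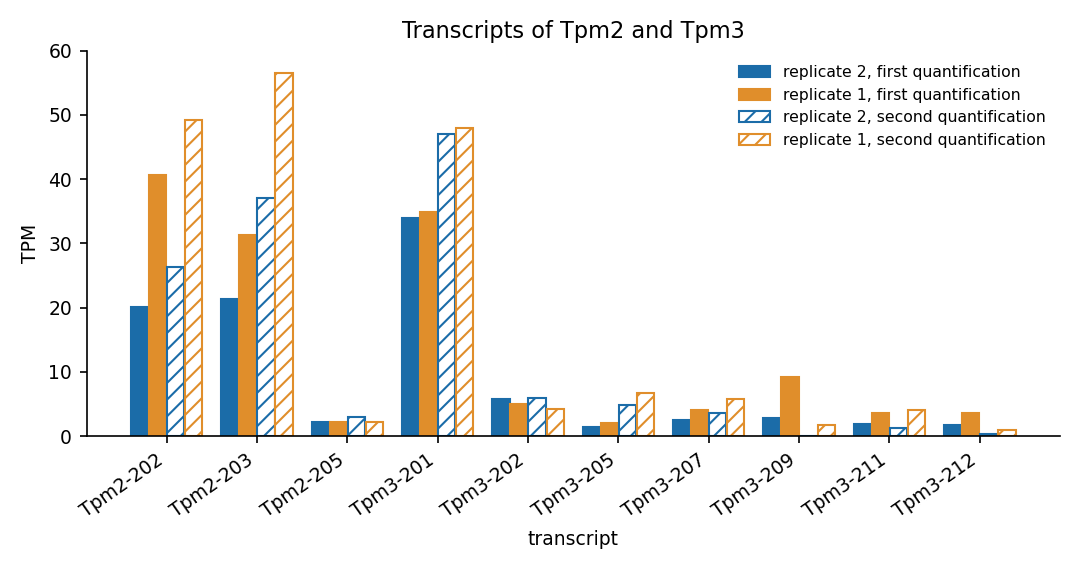
TPM of the named Tpm2 and Tpm3 transcripts per heart (blue, replicate 2, and orange, replicate 1), by the first quantification (solid bars) and the second (hatched bars). Tpm2-202 and Tpm2-203 are lower in replicate 2 by both, Tpm3-201 is level, and the Tpm3 transcripts with a retained intron (Tpm3-207, Tpm3-209, Tpm3-211 and Tpm3-212) are lower in replicate 2.

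The pointed-end genes varied in their transcripts. Lmod2 and Lmod3 have 1 annotated transcript each, with frames of 550 and 571 residues. Tmod1-201, with 359 residues, held 96.9% of Tmod1 TPM in replicate 2 and 95.2% in replicate 1. Tmod3-201, with 352 residues, held 50.0% of Tmod3 TPM in replicate 2 and 50.1% in replicate 1. The next Tmod3 transcript was Tmod3-202, a fragment of 444 bases with an incomplete frame, which had 16.4 TPM in replicate 2 and 13.8 TPM in replicate 1 from only 164 and 115 expected counts. By expected counts Tmod3-201 held 84.5% of the gene, and by the second quantification 65.8 ± 2.53% of its TPM. The Tmod1 locus overlaps Tstd2 on the other strand, which had 528 expected counts in replicate 2 and 592 in replicate 1, against 10206 and 8919 for Tmod1.

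The hearts differed little in most of the 8 genes. Log2 ratios of replicate 2 over replicate 1 were computed from expected counts after TMM scaling, over 16271 genes left by a filter on low counts that all 8 members passed. None of the 8 differed by at least 2-fold, while 3.06% of all filtered genes did. The median absolute log2 ratio was 0.14 over the members and 0.19 over all filtered genes, and 0.13 over the 4971 genes averaging 1000 counts or more. Tpm2 had the widest gap, with a log2 ratio of -0.71, or 0.613-fold, from 1899 counts in replicate 2 and 2858 in replicate 1. The counting interval of that ratio at the 95% level ran from -0.79 to -0.62. A wider gap was found in 8.38% of filtered genes and in 1.83% of those averaging 1000 counts or more. Lmod3 was next below 0 at -0.28, and Tmod3 was the highest at 0.26. Lmod2, Tpm4, Tpm1, Tmod1 and Tpm3 lay between 0.01 and 0.17. On TPM without TMM the signs of Tpm1, Tpm3, Tpm4 and Tmod1 turned negative, at -0.04, -0.30, -0.03 and -0.07, where the median of all filtered genes was itself -0.13. Relative to that median, Tpm3 alone of these 4 was lower in replicate 2.

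**Figure D5:**
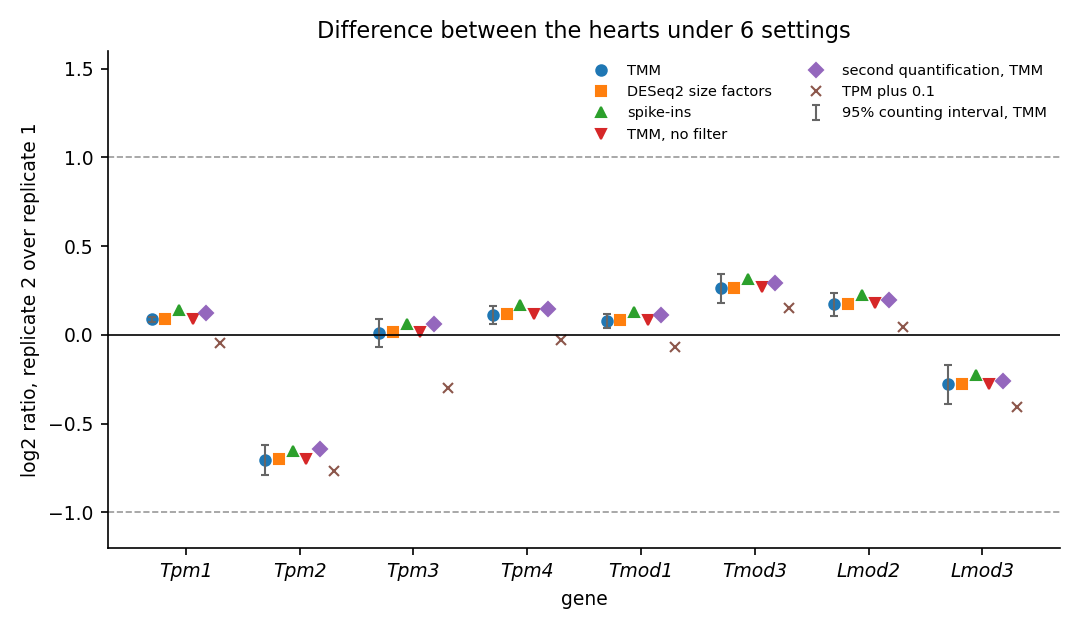
Log2 ratio of replicate 2 over replicate 1 for each gene under 6 settings of scaling, filter and quantification (symbols), with 95% counting intervals on the TMM value (grey bars), a line at 0 and dashed lines at 2-fold. Tpm2 lies between -0.77 and -0.64 and Lmod3 between -0.41 and -0.23 under all 6, and no gene reaches 2-fold.

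Other genes that mark cell types or muscle states moved between the same hearts. Of the 25 thin filament genes, 24 passed the filter, 15 were higher and 9 lower in replicate 2, and their median log2 ratio was 0.11 against -0.0033 for all filtered genes. Acta1, the skeletal actin that the young heart also uses, was the 1 listed gene past 2-fold, with 155 TPM in replicate 2 and 539 TPM in replicate 1 and a log2 ratio of -1.67. Acta2, the smooth muscle actin, had 631 TPM in replicate 2 and 341 TPM in replicate 1, a ratio of 0.97. Of the 7 cardiomyocyte markers, 5 had a TMM ratio below 0 and 6 had the lower TPM in replicate 2, with a median log2 ratio of -0.04. Of 7 smooth muscle and pericyte markers, 6 had a TMM ratio above 0 and 4 had the higher TPM in replicate 2. Their summed level was 897 TPM in replicate 2 and 611 TPM in replicate 1, a gap that Acta2 carried: the other 6 summed to 266 TPM in replicate 2 and 270 TPM in replicate 1. Of 6 fibroblast markers, 5 were higher in replicate 2 by both measures, with 1588 TPM in replicate 2 and 1173 TPM in replicate 1. Tpm2, which those cell types also express, was lower in replicate 2, and both Tpm2-202 and Tpm2-203 were, by log2 TPM ratios of -1.01 and -0.55. All 7 red cell markers had a TMM ratio above 0, and 5 of them, the globins and Alas2, were past 2-fold and had the higher TPM in replicate 2, while Tmod1, the red cell tropomodulin, had a ratio of 0.08. The part of these markers in the values of the 8 genes was not tested.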

How the data were processed

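Total RNA of 2 newborn mouse hearts was sequenced as stranded libraries from 300 ng of RNA with ribosomal RNA reduced and spike-ins added, per the labels. Per the file headers, the authors deposited expected counts and TPM of genes and transcripts, with RSEM's column names (the first quantification), and estimated counts and TPM of transcripts, with kallisto's (the second). Their first transcript tables also give each transcript's percent of the gene, per the file headers, which was computed anew here. Notes deposited with the files give mm10 and GENCODE M21. Tool versions and the aligner are not given in the sources used here, and gene tables also hold bounds on TPM whose level is not stated.

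Expected counts were rounded, filtered with filterByExpr and scaled with TMM in edgeR 4.0.16 (R 4.3.3, prior count 2), with library sizes of 35743975 in replicate 2 and 31512574 in replicate 1 over mouse genes. DESeq2 1.42.0 size factors, spike-in scaling over 27 spike-ins with a mean of at least 100 counts, no filter, TPM plus 0.1 without TMM and the second quantification summed per gene were alternatives. Shares and levels used pandas 2.3.3 under Python 3.11.15. Ratios of TPM had a pseudocount of 0.1, with 1 as the alternative. With 1 library on each side no test was made. Intervals are exact binomial intervals at the 95% level computed with SciPy 1.17.1 and cover counting error only. Named transcripts were the leading one of each gene and those with at least 5% of its TPM in any library of either quantification. Exon copies and their shares used transcripts with an annotated stop codon and a set minimum of coding segments, which left out the shortest frames. Start codons were not checked. Transcripts were called long from 270 residues and short from 200. The members, lists and rules were chosen with earlier results of these data known.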

Additional observations from a re-analysis of the deposited data

How the results depend on the processing

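Directions of the partner ratios and the leading gene of each family were the same under every alternative run. The number of members past 2-fold between the hearts was 0 of 8 under all 6 settings. Of all filtered genes, 3.06% were past 2-fold under the main setting, so a count of 0 among 8 genes is near that background. Tpm1 held 93.7% of tropomyosin TPM and 90.1% of expected counts, which are not scaled for length. The log2 ratio of Tmod1 over Tmod3 was 1.89 by the second quantification. The transcript with the highest mean TPM by the first quantification held, by the second, 71.1% for Tpm1-205, 42.6% for Tpm2-202 (where Tpm2-203 led, at 54.1%), 68.6% for Tpm3-201 and 65.8% for Tmod3-201, and by expected counts 94.7%, 64.9%, 73.8% and 84.5% for the same transcripts and 98.9% for Tmod1-201. The first quantification gave 94.8%, 50.4%, 58.2%, 50.0% and 96.0%. Exon shares, an alternative chosen after seeing the data, were by the second quantification 91.6% for Tpm1 exon 6b, 80.9% for Tpm1 exon 9a, 44.1% for Tpm2 exon 6b and 89.8% for the internal start of Tpm3. The cause of these differences was not tested. Without replicate 1 or replicate 2 the share of Tpm1 ranged from 93.2% to 94.2%, and Tpm2-202 held from 46.0% to 54.8% of Tpm2. No paired analysis was possible because the design holds 1 group. Depth limited the rarer forms: by the first quantification Tpm3-205 and Lmod1 rested on fewer than 100 counts a library. So did Tpm3-209, Tpm3-211 and Tpm3-212, which are among the Tpm3 transcripts annotated with a retained intron.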

Other observations

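Of 9 RNA-binding proteins described as regulators of alternative exons in muscle or epithelium, 7 were expressed. Mbnl2 had 83.0 ± 2.74 TPM, Ptbp1, a repressor of muscle exons, 76.5 ± 9.0 TPM, Rbfox2 75.5 ± 2.82 TPM, Mbnl1 70.8 ± 3.35 TPM and Celf1 56.4 ± 0.488 TPM. Ptbp2 had 27.0 ± 0.0495 TPM and Rbfox1 10.7 ± 0.615 TPM. The epithelial regulator Esrp2 had 0.38 TPM in replicate 2 and 1.16 TPM in replicate 1, and Esrp1 was listed at 0 in both. None of the 8 that passed the filter on low counts differed by 2-fold between the hearts, and their log2 ratios of replicate 2 over replicate 1 lay between -0.50 and 0.18.

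The authors' deposited bounds on gene TPM held the TPM itself for 7 of the 8 members in both hearts. For Tpm1 the TPM of 3402 in replicate 2 lay above bounds of 3304 and 3345, and that of 3508 in replicate 1 above bounds of 3390 and 3436. This was not particular to Tpm1: Actc1, Tnnt2, Tnnc1, Tnni3 and Tnni1 also lay above their bounds in both hearts. Actc1 had 7924 TPM in replicate 2 against an upper bound of 7769, and 6963 TPM in replicate 1 against 6802. Acta2, Dstn and Nrap lay above their bounds in both hearts too. Nrap had 122.3 TPM in replicate 2 against an upper bound of 121.4, and 121.7 TPM in replicate 1 against 120.4. Capzb, with a higher level than Nrap, lay within its bounds in both hearts. Tpm1-219, a processed transcript of 649 bases chosen after its values were seen, had 49.5 TPM in replicate 2 and 51.2 TPM in replicate 1 by the first quantification, and 10.4 TPM in replicate 2 and 13.9 TPM in replicate 1 by the second. The same-strand pseudogene Gm48789 within Tmod3 had 0 expected counts in replicate 2 and 2 in replicate 1, and the antisense gene Gm26586 at the Tpm4 locus had 0 in both.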
